A study of Rattus norvegicus with 30 samples.

Results

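Id2 and Id3 encode inhibitors of basic helix-loop-helix (bHLH) transcription factors, and their RNA was followed through the first days of differentiation in mesenchymal stem cells (BMSCs) from rat bone marrow. Both genes were taken by name, as 2 of the 9999 gene names listed in the files and 2 of the 4363 genes that were expressed highly enough to be tested. The study induced BMSCs toward bone, fat or cartilage and sequenced their RNA at an initiation, an acquisition and an early progression phase. The cells came from the bone marrow of Sprague Dawley rats. According to the paper, the animals were young females, the cells were used at an early passage, and several cultures were pooled for each sample. The 30 samples formed 10 groups of 3. Undifferentiated cells at 0 h (labelled CON) were the reference. The other groups were cells held for 3, 12 or 72 h in osteogenic (OS), adipogenic (AD) or chondrogenic (CH) differentiation medium. No uninduced cells from 3, 12 or 72 h were used here, so that the effect of the induction and that of a change of medium or of time in culture cannot be told apart. Neither the labels nor the paper assign samples to separate animals, and the p-values measure only the spread between these samples.

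Id proteins hold a helix-loop-helix domain without the basic region that touches DNA. They pair with E proteins, the widely expressed partners of tissue-specific bHLH factors, and the resulting dimers cannot bind the E-box motif. Id genes are known as direct targets of bone morphogenetic protein (BMP) signals passed on by Smad proteins, and Id proteins are known to favour proliferation and to hold back differentiation in many progenitor cells.

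Expression is given as CPM, the reads of a gene per 1000000 reads of the sample. CPM does not correct for gene length, so the level of Id2 was not compared with that of Id3. The totals behind the values ran from 3899609 to 9046719 reads per sample with a median of 6579543, and 3 reads, taken as the floor of detection, corresponded to 0.332 to 0.769 CPM. This floor covers counting error only. The listed genes held between 38.9% and 71.4% of the total reads, and the lowest share belonged to AD 72 h replicate 3.

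Groups were compared with limma on log2(CPM + 1), and a gene was called if its log2 fold change had a size of 1 or more and its p, adjusted by Benjamini-Hochberg over all tested genes, was under 0.05. Of 9 marker genes of bone marrow stromal cells, 6 were listed. Thy1, a surface glycoprotein of stromal cells, had a mean of 8051.7 CPM at 0 h, the integrin subunit Itgb1 reached 7729.6 CPM, and the hyaluronan receptor Cd44 reached 599.5 CPM. At 72 h Thy1 was called lower in all 3 lineages, with 427 CPM in AD (log2 fold change −4.24), 3707 CPM in OS (−1.12) and 2380.04 CPM in CH (−1.76). Itgb1 was called lower at 72 h of adipogenesis only (−1.03; −0.94 without AD 72 h replicate 3 and −0.99 without CON replicate 1) and stood at 12315 CPM at 72 h of osteogenesis, and Cd44 was called higher at AD 3 h (1.03), OS 3 h (1.49) and OS 12 h (1.003). The last of these fell under the threshold without OS 12 h replicate 1 (0.99), CON replicate 1 (0.99) or CON replicate 2 (0.98). The summed stromal markers lay between 16085 and 16892 CPM at 0 h. At 3, 12 and 72 h they lay at 21323 to 23217, 18752 to 18937 and 15633 to 17096 CPM in OS, at 16532 to 17829, 9409 to 12495 and 4112 to 4778 CPM in AD, and at 15475 to 17048, 12783 to 16599 and 9106 to 9584 CPM in CH. The defining markers Eng, Pdgfrb and Vcam1 were at or near 0, with means at 0 h of 0.0477 CPM, 0.964 CPM and 0 CPM. Endothelial markers (3 of 5 listed) summed to at most 7.08 CPM, with Tek and Vwf as the most abundant. Tek was called higher at AD 3 h (1.68), OS 3 h (1.33) and OS 72 h (2.12). Vwf was called lower at AD 12 h (−1.23), OS 12 h (−1.68) and CH 12 h (−1.09). Without CON replicate 2 the value of Vwf at CH 12 h was −0.96, under the threshold.

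Lineage markers moved with the groups to different degrees. Sox9, the master regulator of cartilage, rose from 48.1 ± 2.38 CPM (SD, n = 3) at 0 h to 603.0 ± 36.8 CPM at 3 h and 1299 ± 173 CPM at 72 h of chondrogenesis, and it was also called at 3 h of osteogenesis (101 CPM, log2 fold change 1.05). Sox9 fell at 3, 12 and 72 h in AD (−1.45, −2.90 and −1.50) and at 12 h in OS (−1.37). The cartilage matrix gene Comp rose from 0.0464 to 21.6 CPM at 72 h of chondrogenesis (4.43), while Acan and Col2a1 were at or near 0 in the CH groups. Lpl, the lipoprotein lipase of fat tissue, rose to 1921 ± 1127 CPM at 72 h of adipogenesis from 720.3 ± 56.7 CPM at 0 h (log2 fold change 1.27), but without AD 72 h replicate 3 the value was 0.82, under the threshold. It fell at 3 and 12 h in OS (−1.40 and −2.60) and at 3, 12 and 72 h in CH (−1.54, −3.05 and −5.59). Lep, another adipocyte marker, was called higher at 12 h of chondrogenesis (1.43 CPM, log2 fold change 1.25). Plin1, which coats lipid droplets, rose to 2.35 CPM at 72 h of adipogenesis (1.57). The adipocyte factor Pparg rose at 72 h of osteogenesis, to 2.18 CPM (1.60), and was not called in any AD group. Comp, Lep, Plin1 and Pparg reached 1 CPM in 3 samples, the filter for testing, only through the group where each was called. Their calls are therefore a description only. Osteoblast markers in the OS groups summed to between 1.37 and 5.30 CPM, and Sp7, Alpl and Spp1 were at or near 0 there. Ibsp, a bone matrix gene, was highest at 72 h of chondrogenesis with 246.5 ± 62.9 CPM. What part these shifts in cell state had in the values of Id2 and Id3 was not tested, and in bulk RNA fewer cells of a type and less RNA per cell cannot be told apart.

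One library in each of the OS 3 h, AD 12 h and AD 72 h groups stood apart. Over the tested genes, OS 3 h replicate 3 correlated with the others of its group at 0.982 and 0.983, against 0.992 between those others. For AD 12 h replicate 1 both correlations were 0.984, against 0.991. For AD 72 h replicate 3 they were 0.971 and 0.972, against 0.989. The adipocyte markers, of which Lpl was the most abundant, summed to 254 CPM in AD 12 h replicate 1 and to 1094 and 1028 CPM in the others. They summed to 3221 CPM in AD 72 h replicate 3, against 1163 and 1389 CPM. Where a call of Id2 or Id3 changed without one of these samples, the value without it is given.

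Id2 was measured at 41.3, 43.0 and 37.0 CPM in the 0 h samples, backed by 244 to 309 reads. In osteogenesis it stood at 8.93, 10.9 and 6.36 CPM at 3 h, at 5.57, 6.73 and 5.03 CPM at 12 h, and at 34.9, 38.4 and 45.8 CPM at 72 h. All OS samples of 3 and 12 h lay below every 0 h sample, whereas those of 72 h spread across the range of 0 h. In adipogenesis the values were 19.9, 19.4 and 18.6 CPM at 3 h, 19.6, 9.76 and 11.5 CPM at 12 h, and 10.5, 16.3 and 20.9 CPM at 72 h. Each of the 9 AD samples was lower than the lowest 0 h sample, and the AD samples of the different times overlapped, with replicate 1 the high one at 12 h and replicate 3 the high one at 72 h. Chondrogenesis gave 4.80, 7.05 and 3.69 CPM at 3 h, 2.46, 3.58 and 3.64 CPM at 12 h, and 36.7, 36.9 and 35.4 CPM at 72 h. The CH samples at 12 h were the lowest of the series for this gene and rested on 17 to 23 reads each, while the CH samples at 72 h lay narrowly under the lowest 0 h sample.

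Id3 stood at 682.5, 688.9 and 769.7 CPM at 0 h, from 4765 to 5076 reads. During osteogenesis the samples held 304.6, 303.0 and 557.8 CPM at 3 h, 256.1, 301.2 and 258.2 CPM at 12 h, and 516.1, 442.6 and 503.5 CPM at 72 h. All 9 OS samples lay under the 0 h samples, and replicate 3 at 3 h was far above the other replicates of its group. During adipogenesis the values were 88.4, 65.6 and 80.3 CPM at 3 h, 300.0, 164.6 and 179.5 CPM at 12 h, and 207.8, 297.4 and 346.3 CPM at 72 h. The 3 h samples were the low ones, with no overlap with the later samples, and replicate 1 at 12 h was again the high one. During chondrogenesis Id3 was at 86.6, 93.5 and 80.8 CPM at 3 h, 288.3, 287.5 and 274.2 CPM at 12 h, and 768.8, 789.1 and 658.9 CPM at 72 h. These groups did not overlap with one another, and the 72 h samples spanned the 0 h range.

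**Figure D1:**
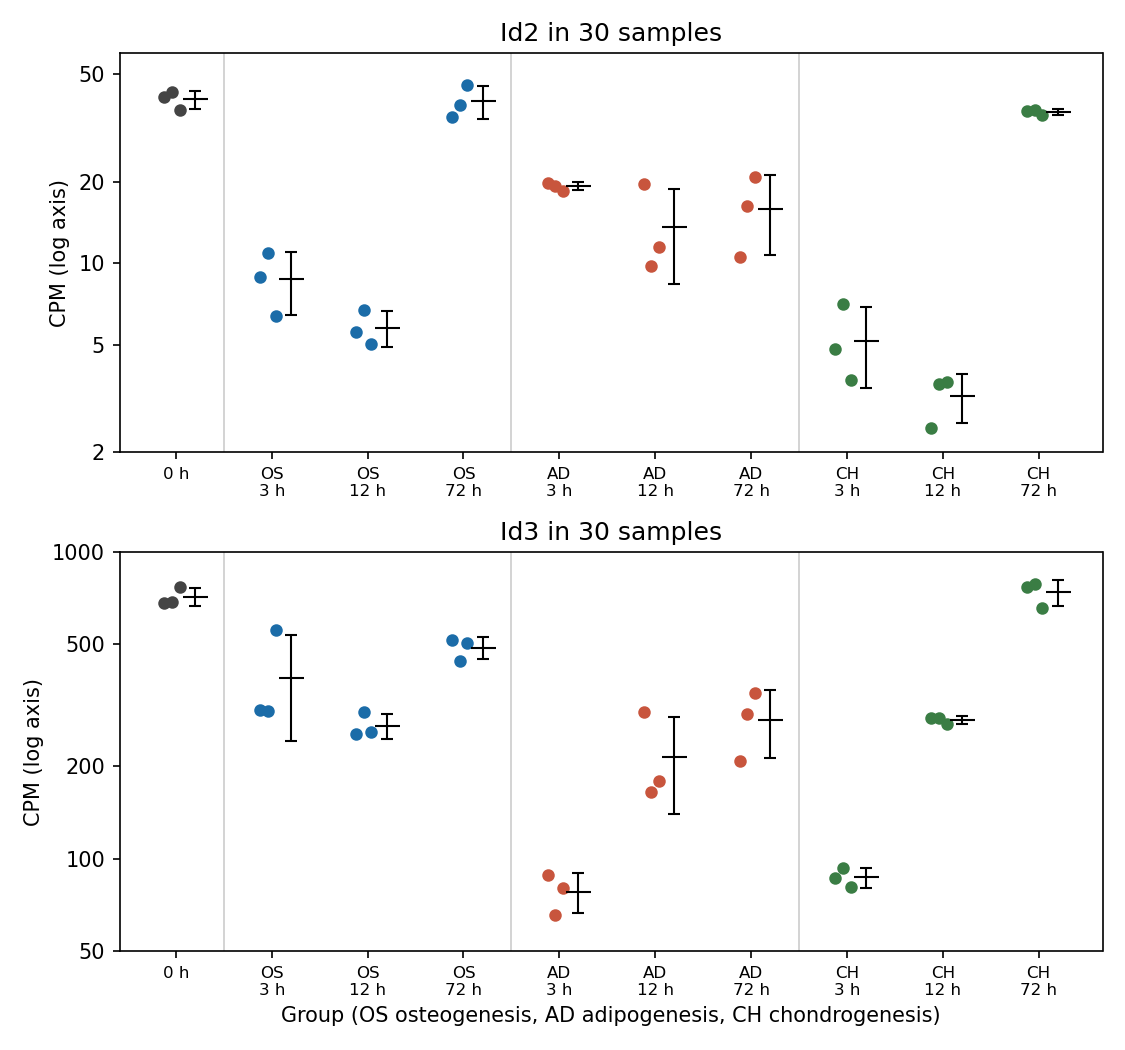
Id2 (top) and Id3 (bottom) in CPM on a log axis in each of the 30 samples, grouped by lineage and hours of induction; dots are samples, and the bars give the mean and SD of 3 samples. Id2 fell to a mean of 3.23 CPM at 12 h of chondrogenesis and Id3 to 78.1 CPM at 3 h of adipogenesis, from 40.4 and 714 CPM at 0 h.

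In order of the group means, Id2 ran from CH 12 h (3.23 ± 0.669 CPM, SD, n = 3) through CH 3 h (5.18 ± 1.71), OS 12 h (5.78 ± 0.867), OS 3 h (8.73 ± 2.28), AD 12 h (13.6 ± 5.26), AD 72 h (15.9 ± 5.21), AD 3 h (19.3 ± 0.657), CH 72 h (36.3 ± 0.841) and OS 72 h (39.7 ± 5.56) to 0 h (40.4 ± 3.10). Samples of neighbouring groups overlapped at every step of this order except between CH 12 h and CH 3 h and between AD 3 h and CH 72 h. The 10 groups thus fell into 7 lower ones, with means of up to 19.3 CPM, and an upper set of CH 72 h, OS 72 h and 0 h. For Id3 the order was AD 3 h (78.1 ± 11.6 CPM), CH 3 h (87.0 ± 6.38), AD 12 h (215 ± 74.3), OS 12 h (272 ± 25.4), CH 12 h (283 ± 7.91), AD 72 h (284 ± 70.2), OS 3 h (388 ± 147), OS 72 h (487 ± 39.3), 0 h (714 ± 48.6) and CH 72 h (739 ± 70.1). Gaps without overlap separated CH 3 h from AD 12 h and OS 72 h from 0 h.

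Against 0 h, Id2 and Id3 were tested with limma in each group, under the thresholds given for the markers. All 9 comparisons share the same 3 samples of 0 h. Id2 was called in 7 of them and Id3 in 6, each time lower. The share of all tested genes called in either direction was 18.4%, 21.8% and 12.5% for OS at 3, 12 and 72 h, 18.8%, 13.7% and 15.3% for AD, and 18%, 14.4% and 18% for CH. The samples of Id2 did not overlap with those of 0 h in 8 of the 9 comparisons, nor did those of Id3 in 8. Among all tested genes, between 44.4% and 56.6% were likewise without overlap in a comparison with 0 h.

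Id2 was 4.63-fold lower at 3 h of osteogenesis (log2 fold change −2.11, SE 0.240, adjusted p = 1.7e-08) and lower still at 12 h (−2.62, adjusted p = 1.7e-10). At 72 h its log2 fold change was −0.03 with a 95% confidence interval of −0.52 to 0.46. In adipogenesis Id2 fell at each time, by 1.03, 1.56 and 1.34 on the log2 scale at 3, 12 and 72 h (adjusted p = 0.00081, 4.9e-06 and 4.1e-05). The call at 3 h lay close to the threshold and was lost without CON replicate 2, where the value was −0.98. In chondrogenesis Id2 fell by 2.78 at 3 h (adjusted p = 7.0e-11) and by 3.30 at 12 h (adjusted p = 3.0e-12), the 12.5-fold difference of that group. Among the 4363 tested genes, 12 had a lower log2 fold change than Id2 at 12 h of chondrogenesis. At 72 h the value was −0.15 with an interval of −0.64 to 0.34, which was not called.

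Id3 gave a different order of the lineages at 3 h. It was 9.14-fold lower in adipogenesis (log2 fold change −3.18, SE 0.197, adjusted p = 5.8e-14) and 8.21-fold lower in chondrogenesis (−3.02, adjusted p = 1.8e-13). In these comparisons 12 and 10 of the tested genes had a lower log2 fold change. In osteogenesis at 3 h the log2 fold change was −0.94 (adjusted p = 0.00025), short of the fold threshold. Without OS 3 h replicate 3, the high sample of the group, it was −1.23 and called (adjusted p = 3.0e-06). It was also called with median-ratio scaling (−1.18), quantile normalization (−1.27) and edgeR (−1.14). The paper lists Id3 among the factors that differed at 3 h of osteogenesis, and describes both genes as lower in the 3 lineages. On this call the main fit therefore differs from the paper. At 12 h Id3 was lower in all 3 lineages, by −1.39 in OS, −1.78 in AD and −1.33 in CH on the log2 scale (adjusted p = 6.8e-07, 1.7e-08 and 2.4e-06). At 72 h it was called in adipogenesis alone among the lineages (−1.36, adjusted p = 1.8e-06). With quantile normalization this call was lost at −0.99. At 72 h of osteogenesis the log2 fold change was −0.55 (adjusted p = 0.034), under the fold threshold, and at 72 h of chondrogenesis it was 0.05, with an interval of −0.35 to 0.45.

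With OS 3 h replicate 3, AD 12 h replicate 1 and AD 72 h replicate 3 set aside together, an alternative chosen after the data were seen, Id2 was called in 7 and Id3 in 7 of the 9 comparisons with 0 h. Of the 4294 genes tested under this setting, 772, 957 and 556 were called for OS at 3, 12 and 72 h. These numbers were 822, 656 and 655 for AD, and 788, 634 and 790 for CH. The values of the adipogenesis groups were then −1.84 at 12 h and −1.55 at 72 h for Id2, and −2.05 and −1.52 for Id3. Median-ratio scaling of the samples shifted the log2 fold changes against 0 h by −0.34 (CH 3 h) to 0.19 (AD 72 h). Under each scaling tried, the 7 calls of Id2 against 0 h kept their direction.

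**Figure D2:**
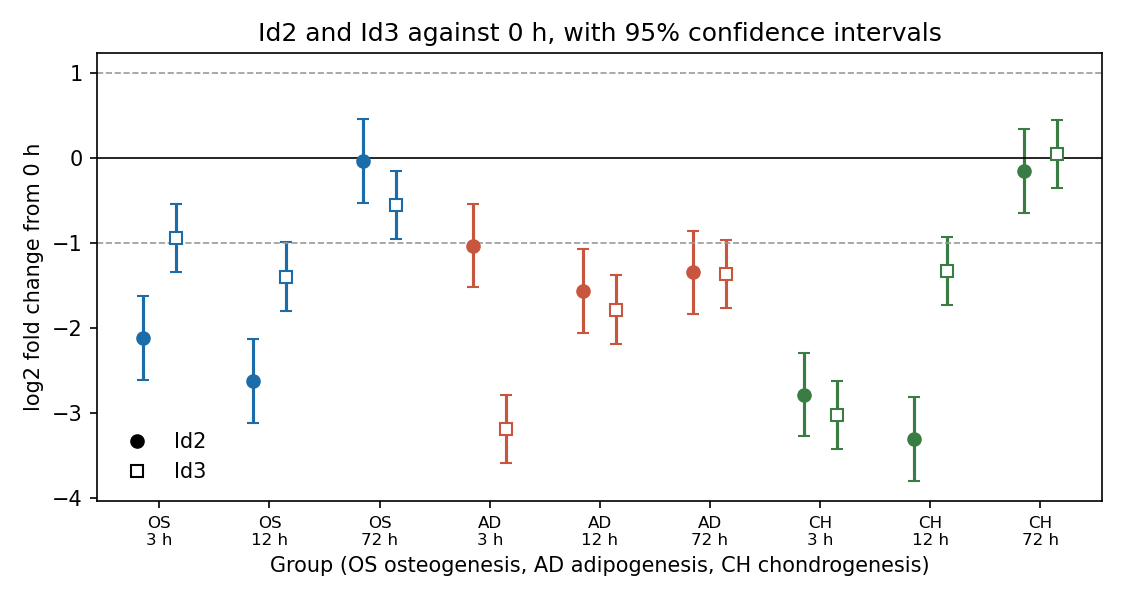
Log2 fold change from 0 h of Id2 (filled circles) and Id3 (open squares) on the log2(CPM + 1) scale, by lineage and hours of induction; bars are 95% confidence intervals of the limma model and dashed lines mark the threshold of 1 in size. At 3 h of adipogenesis Id2 stood at −1.03 and Id3 at −3.18, and at 72 h of chondrogenesis the intervals of both spanned 0.

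Successive time points within a lineage were compared without the 0 h samples. Id2 was called in 2 of these 6 comparisons and Id3 in 3. From 3 to 12 h, where 7.82% (OS), 12.9% (AD) and 7.68% (CH) of all tested genes were called, the log2 change of Id2 was −0.50 in OS, −0.53 in AD and −0.52 in CH, none of them called (adjusted p = 0.14, 0.096 and 0.13). With each replicate left out in turn, these values of Id2 ranged from −0.69 to −0.34, −0.81 to −0.34 and −0.70 to −0.31. Id3 rose over the same interval in AD by 1.41 (adjusted p = 1.5e-06) and in CH by 1.69 (adjusted p = 8.8e-08), and in OS its value was −0.46, which was not called (adjusted p = 0.099) and was −0.16 without OS 3 h replicate 3. In CH the 3.26-fold rise of Id3 exceeded that of all but a few genes, with 4347 of the 4363 tested genes having a lower log2 fold change. Between 12 and 72 h, with 23.2%, 16% and 13.2% of the tested genes called in OS, AD and CH, Id2 rose 6.87-fold in OS (2.59, adjusted p = 2.2e-10) and 11.3-fold in CH (3.15, adjusted p = 9.0e-12). In AD its change of 0.22 was within the spread of the samples (interval −0.27 to 0.71). Id3 rose by 1.38 in CH (adjusted p = 1.6e-06). Its values in OS and AD were 0.84 (adjusted p = 0.00072) and 0.42 (adjusted p = 0.087), and neither reached the threshold. With each replicate left out in turn, the change in AD from 12 to 72 h ranged from 0.01 to 0.50 for Id2 and from 0.26 to 0.69 for Id3. In OS the value of Id3 passed the threshold with median-ratio scaling (1.03), quantile normalization (1.18) and edgeR (1.09). In AD it did so with quantile normalization, at 1.01.

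Lineages were then compared at the same time, again without the 0 h samples. At 3 h, 7.66% of the tested genes were called between OS and AD, 7.31% between OS and CH and 9.35% between CH and AD. Id2 was lower in OS than in AD (log2 fold change −1.09, adjusted p = 0.0014) and lower in CH than in AD (−1.75, adjusted p = 1.5e-06). Its difference between OS and CH was 0.66 and was not called (adjusted p = 0.052). Id3 was higher in OS than in AD by 2.25 (adjusted p = 4.4e-10) and higher in OS than in CH by 2.09 (adjusted p = 2.3e-09), and CH and AD differed by 0.16 with an interval of −0.24 to 0.56. Of the 4363 tested genes, 4342 had a lower log2 fold change than Id3 between OS and AD, and 4344 between OS and CH. So at 3 h Id2 and Id3 differed between OS and AD in opposite directions. Without OS 3 h replicate 3 the difference of Id2 between OS and AD was −0.90 and no longer called, whereas that of Id3 was 1.96.

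At 12 h the tested genes called were 13.2% between OS and AD, 16% between OS and CH and 13.6% between CH and AD. Id2 was lower in OS than in AD by −1.06 (adjusted p = 0.00083) and lower in CH than in AD by −1.74 (adjusted p = 9.4e-07). Between OS and CH its difference was 0.69 (adjusted p = 0.025), under the fold threshold. The call between OS and AD was lost without AD 12 h replicate 1 (−0.78) and without OS 12 h replicate 3 (−0.98), and also with quantile normalization (−0.98). Id3 was not called between any 2 lineages at 12 h, with log2 fold changes of 0.39 (OS against AD), −0.06 (OS against CH) and 0.45 (CH against AD). Without AD 12 h replicate 1 the first was 0.65 and the last 0.72, and neither was called.

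At 72 h these shares were 13.7%, 19.6% and 25.5%. Id2 was higher in OS than in AD by 1.31 (adjusted p = 6.0e-05) and higher in CH than in AD by 1.19 (adjusted p = 0.00012). Between OS and CH the difference was 0.12, with an interval of −0.37 to 0.61. Both calls fell just short of the threshold with median-ratio scaling, at 0.98 each. The call between CH and AD was also lost without AD 72 h replicate 1 (0.94), with quantile normalization (0.95) and with edgeR (0.99). Id3 was higher in CH than in AD by 1.40 (adjusted p = 5.5e-07), and its differences of 0.81 between OS and AD and −0.60 between OS and CH were below the fold threshold. With quantile normalization the call of Id3 between CH and AD was lost at 0.96. Over the 9 lineage comparisons Id2 was called in 6 and Id3 in 3. With the 3 libraries named above set aside these counts were 4 and 3. Between 340 and 1071 of the 4294 genes tested under that setting were called in a lineage comparison.

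The ratio of Id2 to Id3 within a sample carries the lengths of both genes, so only its change from 0 h is read, not its level. The added 1 CPM makes this change depend on scaling and gene length too, most where Id2 is low. At 0 h log2((Id2 + 1)/(Id3 + 1)) was −4.02, −3.97 and −4.34. At 3 h of adipogenesis it stood at −2.10, −1.71 and −2.05, a mean change of 2.16, and at 12 h of chondrogenesis at −6.39, −5.98 and −5.89, a mean change of −1.97. All samples of these groups lay outside the 0 h range, on opposite sides of it. In osteogenesis the mean change was −1.18 at 3 h and −1.23 at 12 h, with all samples below 0 h, and 0.52 at 72 h, with all samples above. OS 3 h replicate 3, at −6.25, was far under the −4.94 and −4.68 of the other replicates, and without it the change was −0.70. The remaining changes were 0.22 and 0.02 at 12 and 72 h of adipogenesis and 0.24 and −0.20 at 3 and 72 h of chondrogenesis. With each replicate left out in turn these ranged from 0.10 to 0.29, −0.10 to 0.09, 0.09 to 0.37 and −0.31 to −0.13. With 0.1 in place of 1 CPM added, the changes were −2.29 at 12 h and 0.0478 at 3 h of chondrogenesis, and at 12 h of adipogenesis the samples overlapped with 0 h (0.157, exact p = 0.3). An exact two-sided permutation test over 3 against 3 samples cannot go below p = 0.1. That smallest value was reached in 6 of the 9 groups, with a Benjamini-Hochberg adjusted p of 0.15 over the 9.

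**Figure D3:**
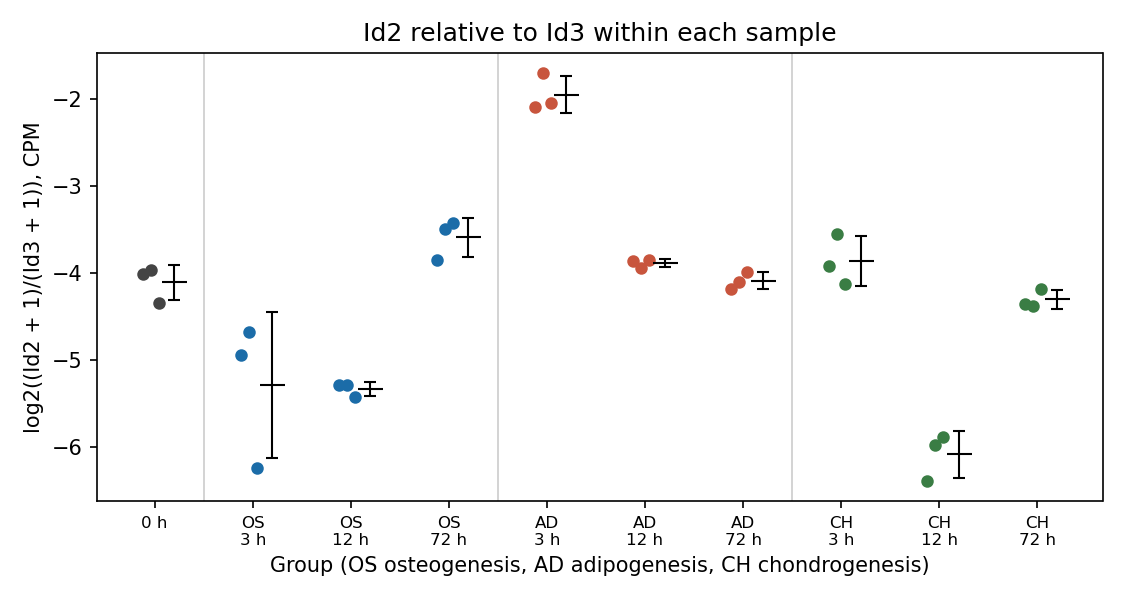
Log2 ratio of Id2 to Id3, each as CPM + 1, in each of the 30 samples by lineage and hours of induction; dots are samples and bars give the mean and SD of 3 samples. The AD 3 h samples, between −2.10 and −1.71, lie above all others, and the CH 12 h samples, between −6.39 and −5.89, and the OS 12 h samples lie below 0 h.

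Id2 was listed under 2 entries of the same name, which were summed, and Id3 under 1. The first Id2 entry held 0 to 12 reads per sample and the second 12 to 300, and the median share of the first was 2.48%. That share reached 29.4% in CH 12 h replicate 1, which had 17 Id2 reads in all. Tested apart, the second entry was called in the same 7 comparisons with 0 h, with log2 fold changes from −3.38 to −1.10. The first entry, with its few reads, was called in none of the comparisons with 0 h. At AD 3 h its log2 fold change was 0.31 (adjusted p = 0.44 with limma).

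E proteins, through which Id proteins act, and the other Id genes were looked up by name and were not among the listed genes. The listed genes held only part of the reads, so a gene that is not listed cannot be taken as unexpressed. Of 94 genes in lists of the Id and E protein families, other bHLH factors, the BMP and transforming growth factor beta (TGF-beta) pathways and cell cycle inhibitors, 42 besides Id2 and Id3 were listed and 22 tested. Of these 22, 20 were called in at least 1 comparison with 0 h, as were 2320 (53.2%) of all 4363 tested genes. The lists were chosen with earlier results of these data known. Tcf23 (OS 72 h) and Heyl (CH 72 h) reached 1 CPM in 3 samples, the filter for testing, only through the group where they were called. The 20 of 22 is therefore a description only. Of the 22 members, 8, 6 and 8 were called for OS at 3, 12 and 72 h. For AD they were 5, 9 and 7, and for CH 9, 7 and 11. Beside them, 18.4%, 21.8% and 12.5% of all tested genes were called for OS. These shares were 18.8%, 13.7% and 15.3% for AD, and 18%, 14.4% and 18% for CH. In each comparison the share of the members was above that of all tested genes, with the limits just given. The median log2 fold change of the members lay between −0.18 (AD 72 h) and 0.25 (CH 72 h), and that of all tested genes between −0.05 and 0.21. Over the 9 comparisons the 22 members had 70 calls. With a pseudocount of 0.1 they had 83, of which 69 were shared, and with edgeR 84, of which 67 were shared. Under both alternatives more of all tested genes were also called in each comparison with 0 h.

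Of the 9 BMP ligands, Bmp3 and Gdf6 were tested, while Bmp2, Bmp5 and Gdf7 were listed at group means of at most 0.806 CPM. Gdf6 stood at 0.378 ± 0.360 CPM at 0 h, about the floor, and rose to 5.41 ± 2.77 CPM at 3 h of osteogenesis and to 17.4 ± 3.23, 26.8 ± 2.90 and 4.86 ± 0.581 CPM at 3, 12 and 72 h of chondrogenesis. Bmp3, at 1.69 ± 0.471 CPM at 0 h, was called lower in 4 comparisons and higher at 72 h of osteogenesis (4.52 ± 0.953 CPM). The latter call was lost with median-ratio scaling (0.95), quantile normalization (0.99) and edgeR (adjusted p = 0.13), with a pseudocount of 0.1 (adjusted p = 0.23), without CON replicate 1 (0.89) and without OS 72 h replicate 2 (0.90). The lower value of Bmp3 at 72 h of adipogenesis (−1.03) was not called without CON replicate 2 (−0.95), CON replicate 3 (−0.95), AD 72 h replicate 1 (−0.95) or AD 72 h replicate 3 (−0.84).

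Of 13 BMP receptors and Smads, 5 were listed and Acvr2b alone was tested. Acvr2b, a type II receptor for activins and BMPs, fell from 7.45 ± 0.628 CPM in 7 of the 9 groups, to as low as 1.35 ± 0.893 CPM at 3 h of adipogenesis (log2 fold change −1.91). Its call at 72 h of adipogenesis was lost without AD 72 h replicate 2 (−0.97). Bmpr1b, Acvrl1, Rgma and Smad9 had group means of at most 0.711 CPM. Among the BMP antagonists, Nog, which binds BMPs outside the cell, rose from 8.003 ± 2.003 CPM to 28.4 ± 1.59 CPM at 3 h of chondrogenesis (1.73). It fell in 4 groups, namely AD 3 h, AD 12 h, OS 12 h and OS 72 h. The call at OS 12 h (−1.10) was lost without CON replicate 3 (−0.93) and without OS 12 h replicate 2 (−0.78), and also without the filter on low values (adjusted p = 0.066). At 72 h of adipogenesis it stood at 25.3, 23.4 and 3.17 CPM, with replicate 3 the low sample.

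Bambi, a decoy receptor induced by BMP and TGF-beta signals, rose from 5.86 ± 0.900 CPM to 35.0 ± 4.61 CPM at 3 h of adipogenesis (2.39) and to 23.5 ± 3.08 CPM at 72 h of chondrogenesis (1.84). It was called lower at 12 h of osteogenesis (2.42 CPM, adjusted p = 0.0086), a call lost with quantile normalization (−0.97) and without CON replicate 1 (−0.93), CON replicate 2 (−0.97) or OS 12 h replicate 2 (−0.90). Dlx3, a homeobox gene that responds to BMPs, was called higher in 5 groups. It went from 29.7 ± 1.90 CPM to 232 ± 2.25 CPM at 3 h of adipogenesis and to 267 ± 7.90 CPM at 12 h of osteogenesis, and it fell to 7.85 ± 1.30 CPM at 72 h of chondrogenesis (−1.80). Its call at 12 h of adipogenesis rested on replicate 1, with 190.0 CPM against 43.3 and 49.0 CPM, and without it the log2 fold change was 0.62. Msx2, a homeobox target of BMPs, was called at 72 h of osteogenesis only, at 19.1 ± 1.19 CPM against 8.25 ± 1.95 CPM, and not without CON replicate 1 (0.95).

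In the TGF-beta pathway, the ligand Tgfb1 stood at 182 ± 2.29 CPM at 0 h and rose to 657 ± 78.8 CPM at 72 h of chondrogenesis (1.84), and it fell to 62.7 CPM at 72 h of adipogenesis (−1.54). Its call at 3 h of chondrogenesis was lost with median-ratio scaling (0.72), quantile normalization (0.63) and edgeR (0.70). Tgfbr3, the co-receptor betaglycan, was called higher in 3 groups and lower in 4. It reached 5426 ± 181 CPM at 72 h of adipogenesis and 4247 ± 169 CPM at 72 h of osteogenesis from 863 ± 18.7 CPM, and it was down to 74.0 ± 6.63 CPM at 72 h of chondrogenesis. Among cell cycle inhibitors, Rbl2, a relative of the retinoblastoma protein, fell at 3 h in all 3 lineages, by 1.58 in OS, 1.39 in AD and 1.31 in CH on the log2 scale, and by 1.02 at 12 h in CH. The last of these calls was lost without CON replicate 2 (−0.99), CON replicate 3 (−0.999) or CH 12 h replicate 3 (−0.99). Cdkn2a had group means of at most 1.79 CPM, and its call at 12 h of adipogenesis was lost without AD 12 h replicate 3 (0.9997).

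Of 23 other bHLH factors, 15 were listed and 10 tested. Atoh8, which is related to the atonal factors, fell in 4 groups, from 34.3 ± 1.31 CPM to 8.77 ± 4.28 and 3.71 ± 1.57 CPM at 3 and 12 h of osteogenesis and to 15.6 ± 3.16 and 10.5 ± 2.93 CPM at 3 and 12 h of chondrogenesis. In these same groups Id2 was at its lowest, and at 72 h of both lineages Atoh8 was not called, with 29.4 ± 2.51 and 42.1 ± 4.64 CPM. The call at 3 h of chondrogenesis was lost without CH 3 h replicate 3, at −0.95. Scx, the tendon factor scleraxis, rose in chondrogenesis from 2.61 ± 0.673 CPM to 15.1 ± 0.495, 18.8 ± 1.12 and 26.2 ± 1.68 CPM at 3, 12 and 72 h and fell in AD 12 h, AD 72 h and OS 72 h.

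The clock-linked repressor Bhlhe40 fell at 12 h of adipogenesis from 254 ± 9.21 CPM to 17.4 ± 4.66 CPM (−3.82) and at 72 h to 82.1 ± 40.1 CPM (−1.72), and it rose at all 3 times of chondrogenesis, with 672 ± 56.6 CPM at 72 h (1.39). Its rise at 3 h was not called with median-ratio scaling (0.95), quantile normalization (0.88) or edgeR (0.93), nor that at 12 h with quantile normalization (0.97). Its relative Bhlhe41 rose to 67.2 ± 19.9 CPM at 72 h of chondrogenesis from 5.49 ± 1.20 CPM (3.37) and fell to 0.835 CPM at 12 h of adipogenesis (−1.91). Of the remaining factors, Ascl2, Lyl1, Heyl and Tcf23 were called higher in 1 to 3 groups at means of at most 3.14 CPM. Heyl and Tcf23 passed the filter for testing only through the group where they were called. Hes6 was called lower in OS 3 h, at 1.48 CPM against 4.41 CPM at 0 h, but not without OS 3 h replicate 2 (−0.93). This direction differs from the paper, which describes Hes6 as upregulated in that group. For Lyl1 the call in OS 3 h was lost without CON replicate 3 (0.88) or OS 3 h replicate 1 (0.94) and with median-ratio scaling (0.91). For Ascl2 that in AD 12 h was lost without CON replicate 2 (0.79) or AD 12 h replicate 1 (0.87), with median-ratio scaling (0.91) and with quantile normalization (0.95).

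The likeness of other genes to Id2 and Id3 was measured as the Pearson correlation of the 10 group means of log2(CPM + 1), over 2076 tested genes with a mean of at least 5 CPM. These values only describe the pattern. The 5 genes most like Id2 were Abca2 (0.878), Fuca1 (0.829), Ctsd (0.825), Camk2n1 (0.823) and Mylip (0.822). Abca2 is a lipid transporter of the endolysosome, and Fuca1 and Ctsd are lysosomal hydrolases. Abca2 stood at 221 CPM at 0 h, 131 CPM at 12 h and 204 CPM at 72 h of osteogenesis, and 114 CPM at 12 h and 203 CPM at 72 h of chondrogenesis. The lowest correlations with Id2 were those of the splicing factor Prpf38a (−0.865), the ribosome assembly factor Ltv1 (−0.864) and the mitochondrial ribosomal protein gene Mrpl17 (−0.862). Prpf38a was at 112 CPM at 0 h and at 206 and 195 CPM at 12 h of osteogenesis and chondrogenesis.

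For Id3 the closest genes were Lrfn3 (0.859), the autophagy gene Gabarapl1 (0.857), the copper transporter Slc31a2 (0.825), the DNA polymerase delta subunit Pold4 (0.814) and the sulfhydryl oxidase Qsox1 (0.792). Gabarapl1 stood at 738 CPM at 0 h and at 221 and 247 CPM at 3 h of adipogenesis and chondrogenesis, the groups with the lowest Id3. The lowest values were those of the transcription factor IIH subunit gene Gtf2h3 (−0.937), Ptcd2 (−0.847) and the signal peptidase subunit Spcs2 (−0.834). Gtf2h3 was at 51.3 CPM at 0 h and at 91.8 and 89.7 CPM in these 3 h groups. Id2 and Id3 correlated with each other at 0.515 over the 10 group means and at 0.509 over the 30 samples.

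The upstream sequences of Id2 and Id3 are shown as description only, and their relation to the expression values was not tested. At 12 h both genes were called lower in all 3 lineages. At 3 h of osteogenesis Id3 was short of the fold threshold in the main fit, but it was called under some alternatives. Both genes matched an entry of the RefSeq promoter table of assembly GRCr8. Id2 lies on the reverse strand of chromosome 6, at chr6:47469162-47470995, and the 250 bases before its start are chr6:47470996-47471245. Id3 lies on the forward strand of chromosome 5, at chr5:153656253-153657860. Its table entry reached into the annotated gene, and the 212 bases before the annotated start are used, chr5:153656041-153656252. Capitals mark matches on either strand to the CCAAT box (CCAAT) and the E-box (CANNTG).
Id2: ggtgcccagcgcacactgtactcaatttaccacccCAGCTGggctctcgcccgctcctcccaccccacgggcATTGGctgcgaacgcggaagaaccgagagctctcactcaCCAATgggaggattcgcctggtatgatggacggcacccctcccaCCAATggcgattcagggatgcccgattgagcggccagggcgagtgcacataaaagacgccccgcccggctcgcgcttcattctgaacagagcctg
Id3: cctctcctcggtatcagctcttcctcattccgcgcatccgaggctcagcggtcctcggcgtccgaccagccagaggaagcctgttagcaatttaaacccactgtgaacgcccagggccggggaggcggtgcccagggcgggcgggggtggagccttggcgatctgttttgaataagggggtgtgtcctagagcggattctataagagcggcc

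The window of Id2 held 3 matches to CCAAT, which 34.0% of 33469 promoters of the same length hold at least once, 1 match to the E-box, held by 65.5%, and 1 to the short Smad element GTCT, held by 84.0%. Counted from the gene start, the CCAAT matches began at −178, −139 and −95, on the reverse strand for the first and on the forward strand for the others. No match overlapped another. The letters TATAAA (12.9%), GGCGCC (8.69%), the Smad-binding element GTCTAGAC (0.173%) and the cyclic AMP response element TGACGTCA (1.59%) were not in this window. In the shorter window of Id3, none of these letters was found on either strand. In windows of that length CCAAT was held by 30.3% of promoters, CANNTG by 59.8%, GTCT by 79.2%, TATAAA by 10.7%, GGCGCC by 7.10%, GTCTAGAC by 0.152% and TGACGTCA by 1.12%. These windows were the first 212 of the 250 bases of each promoter and stop short of its start. The Id3 window runs up to the annotated start, so only the length is matched to it. Each GTCTAGAC also contains GTCT. Such matches describe letters in a window and are not evidence of binding.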

How the data were processed

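RNA of 30 samples (10 groups of 3) was analysed from the values per gene that the authors deposited. The files name them FPKM, but in each sample 100% were whole multiples of 1 step within 0.02 reads, so the deposited values are CPM, without gene length, and the reads behind them were recovered. The submitters' processing notes name Trimmomatic, HISAT2 and StringTie; their versions and the genome build are not given in the sources used here. The paper describes mRNA libraries sequenced on a NovaSeq instrument, whereas the labels describe removal of ribosomal RNA by Ribo-Zero. Genes that share a name (729 of 9999 names) were summed.

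The filter kept genes that reached 1 CPM in 3 or more samples. The test on log2(CPM + 1) was that of limma 3.58.1 under R 4.3.3, by way of lmFit, contrasts.fit and eBayes with trend, in 1 model of 10 groups without covariates, over 24 comparisons. Fold changes on this scale understate those of low genes. Fold differences in the text are ratios of mean CPM. The test had been planned without knowledge of the unit and was kept for CPM. Ratios were tested with exact permutation in scipy 1.17.1. Tables and figures used Python 3.11.15, numpy 2.4.6, pandas 2.3.3 and matplotlib 3.10.9. The fitting steps were tested on simulated data. The members and lists were chosen with earlier results of these data known. Named were Id2 and Id3, list members called against 0 h, members of the BMP ligand and receptor lists that the files hold, and for each of Id2 and Id3 the 5 genes with the highest and the 3 with the lowest correlation of group means.

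Alternatives were a pseudocount of 0.1, no filter, median-ratio scaling, quantile normalization, a fit on the 6 samples compared, the replicate number as a block, each replicate left out in turn, edgeR 4.0.16 (quasi-likelihood test, TMM) on the recovered reads and Id2 entries tested apart. Setting 3 libraries aside, all alternatives for the lists, and leaving out replicates for the markers were added after the data were seen. With edgeR, 1002, 1195 and 692 of the 4363 tested genes were called for OS at 3, 12 and 72 h against 0 h, against 801, 952 and 545 with limma.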

Additional observations from a re-analysis of the deposited data

Results flagged for a closer look

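The lineages held at the same time were compared directly with limma, and 9 of these differences of Id2 and Id3 were called. In the same comparisons between 7.31% and 25.5% of all tested genes were called. At 3 h Id2 was lower in osteogenesis than in adipogenesis (log2 fold change −1.09) and lower in chondrogenesis than in adipogenesis (−1.75). Id3 at 3 h was higher in osteogenesis than in adipogenesis (2.25) and than in chondrogenesis (2.09). At 12 h Id2 was lower in osteogenesis (−1.06) and in chondrogenesis (−1.74) than in adipogenesis. At 72 h Id2 was higher in osteogenesis (1.31) and in chondrogenesis (1.19) than in adipogenesis, and Id3 was higher in chondrogenesis than in adipogenesis (1.40). The calls of Id2 between osteogenesis and adipogenesis at all 3 times, and those of Id2 and Id3 between chondrogenesis and adipogenesis at 72 h, were lost under at least 1 alternative. The cause of these differences was not tested.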

How the results depend on the processing

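With median-ratio scaling, Id3 at OS 3 h against 0 h (−1.18) and from 12 to 72 h of osteogenesis (1.03) gained a call. Id2 at 72 h lost its call between OS and AD (0.98) and between CH and AD (0.98), and turned to −0.00166 between OS and CH. With quantile normalization, Id3 gained calls at OS 3 h (−1.27) and from 12 to 72 h in OS (1.18) and AD (1.01). Lost calls were Id3 at AD 72 h (−0.99), Id2 between OS and AD at 12 h (−0.98), and Id2 (0.95) and Id3 (0.96) between CH and AD at 72 h. Id3 turned direction at CH 72 h (−0.0363) and between CH and AD at 3 h (−0.0264).

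With edgeR, Id3 gained calls at OS 3 h (−1.14) and from 12 to 72 h of osteogenesis (1.09) and turned to −0.0255 at CH 72 h, and Id2 between CH and AD at 72 h was 0.99. With 3 libraries set aside, Id3 at OS 3 h was −1.23 and called, and Id2 between OS and AD lost its calls at 3 h (−0.90) and 12 h (−0.78). With a pseudocount of 0.1 the ratio of Id2 to Id3 was −0.0328 at AD 72 h and −2.29 at CH 12 h, at CH 3 h it went from 0.24 to 0.0478, and at AD 12 h its samples overlapped with 0 h (0.157, exact p = 0.3).

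Leaving out each replicate in turn gave ranges, lowest to highest, that included a changed result. For Id2 they were −0.14 to 0.0541 (OS 72 h), −1.09 to −0.98 (AD 3 h), −1.25 to −0.90 (OS against AD at 3 h), −1.25 to −0.78 (OS against AD at 12 h) and 0.94 to 1.40 (CH against AD at 72 h). For Id3 they were −1.23 to −0.79 (OS 3 h) and −0.00191 to 0.13 (CH 72 h), and for the ratio −0.10 to 0.0873 (AD 72 h).

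With the replicate number as a block, no result of Id2 or Id3 changed, and Id2 at OS 3 h was −2.11. Same-numbered samples gave no sign of pairing, with correlations of −0.168 to 0.160 between them. The other alternatives left the calls of Id2 and Id3 as they were. The cause of the changes was not tested.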
